A study of Mus musculus with 12 samples.

Results

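Of the 12 mouse hearts in the series, 4 held very little of the mRNA that marks atrial muscle, and 8 held it in quantity. The 4 low hearts were HRC variant 3 and compound 1, 2 and 3. The 8 high hearts were all 3 nontransgenic hearts, all 3 with the MYBPC3 deletion, and HRC variant 1 and 2. The hearts were chosen by the measured levels of Myl7, Myl4 and Sln, so differences between low and high hearts are given as a description, with no test. The question was which transcripts go with the atrial signal and which go with genotype, and the HRC variant group served as the check, since it holds hearts of both kinds.

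All mice were 6 months old and on a C57BL background. Nontransgenic mice (labelled C57BL/WT) and mice homozygous for MYBPC3Δ25bp, a 25 bp deletion in the gene of cardiac myosin-binding protein C, had 2 males and 1 female each. Mice heterozygous for HRCS96A, a variant of the HRC protein that binds calcium inside the sarcoplasmic reticulum, and compound mice (HRCS96A Het+MYBPC3Δ25bp Hom) were all female, 3 in each group. The labels give the tissue as heart, without naming chambers, and replicates count as separate hearts only as far as the labels state it. The 4 low hearts were therefore all female, while the high hearts were 4 males and 4 females. Genotype and atrial signal cannot be told apart for the compound group, because all of its hearts were low.

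Atrial and ventricular muscle cells build the same contractile machine from partly different parts. Atrial cells use their own myosin light chains, restrain the calcium pump of the sarcoplasmic reticulum with sarcolipin as well as phospholamban, and store natriuretic peptides in granules for release on stretch. They sit next to tissues that the ventricular wall largely lacks, such as the sinus node, the roots of the great veins and the fat and mesothelium around them. The mouse ventricle in turn carries the Irx homeobox factors and the repolarising current subunit Kcnip2. In a whole-heart RNA sample, fewer cells of a type and less RNA per cell cannot be told apart.

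The promoters of 4 atrial genes with wide gaps between low and high hearts are shown, though these were not the 4 widest gaps. Each is the 250 bases before the RefSeq start on GRCm38.p6, read 5′ to 3′ on the gene's strand. Capitals mark GATA motifs (AGATAA or TGATAA, either strand), T-box motifs (AGGTGT, either strand) and the CArG box, which is the serum response factor motif; these motifs did not overlap here. Among 9 genes looked up, 7 matched; Sln and Dkk3 did not.
Myl7 (chr11:5898783-5899032, minus strand): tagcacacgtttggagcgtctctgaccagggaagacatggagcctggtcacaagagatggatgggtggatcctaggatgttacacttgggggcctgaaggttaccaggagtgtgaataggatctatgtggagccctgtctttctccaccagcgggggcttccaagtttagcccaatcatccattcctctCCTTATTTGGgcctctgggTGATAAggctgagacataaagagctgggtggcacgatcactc
Mybphl (chr3:108364661-108364910, plus strand): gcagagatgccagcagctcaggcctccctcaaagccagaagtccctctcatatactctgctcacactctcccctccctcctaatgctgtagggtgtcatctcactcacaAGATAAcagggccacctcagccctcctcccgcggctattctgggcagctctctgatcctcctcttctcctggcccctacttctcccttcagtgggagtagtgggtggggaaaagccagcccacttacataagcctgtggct
Nppa (chr4:148000472-148000721, plus strand): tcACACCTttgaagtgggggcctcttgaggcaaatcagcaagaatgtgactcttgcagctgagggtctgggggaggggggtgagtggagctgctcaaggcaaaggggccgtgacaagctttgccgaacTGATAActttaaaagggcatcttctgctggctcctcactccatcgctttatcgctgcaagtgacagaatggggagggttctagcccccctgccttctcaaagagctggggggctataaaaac
Bmp10 (chr6:87428744-87428993, plus strand): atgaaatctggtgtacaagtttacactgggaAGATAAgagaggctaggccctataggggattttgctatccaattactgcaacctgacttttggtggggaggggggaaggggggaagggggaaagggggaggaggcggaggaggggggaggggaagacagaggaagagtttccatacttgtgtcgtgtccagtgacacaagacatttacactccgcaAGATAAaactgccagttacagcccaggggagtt
The Myl7, Mybphl and Nppa windows held 1 GATA motif each and the Bmp10 window 2, the Nppa window held 1 T-box motif and the Myl7 window held 1 CArG box. Of the other matched genes, Myl4, whose gap was wider than that of Nppa, held 0 of these motifs, as did Irx2, and Hamp held 1 GATA motif. The windows of Myl4 (to chr11:104550662) and Irx2 (to chr13:72628819) ended inside the deposited coordinates of these genes. They thus lie partly past the deposited start. Of all 32851 RefSeq windows of this length, 16.6% held the GATA motif, 11.8% the T-box motif and 1.47% the CArG box. A match describes letters in the window and was not tied to binding in these hearts.

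The libraries held 15615182 to 20581197 counts, and values below are counts per 1000000 (CPM) after scaling unless another unit is named. Several libraries stood apart from their group. MYBPC3 deletion 2 held 4299 counts of the airway secretoglobin Scgb1a1, against 0 to 60 in the other 11 libraries, and 1020 summed TPM (transcripts per 1000000) of the lung list. HRC variant 1 had 7.72 CPM of the adult beta globin Hbb-bs, against 278 to 1544 in the others. The clock output gene Dbp stood at 84.7 and 92.7 CPM in HRC variant 2 and 3, against 256 to 353 in the other 10 hearts, so these hearts of unlike atrial level shared a clock difference. Across the 13849 tested genes, log2 CPM of HRC variant 3 correlated at r = 0.981, 0.983 and 0.977 with compound 1, 2 and 3. With HRC variant 1 and 2 it correlated at 0.950 and 0.977. HRC variant 2, a high heart, correlated at 0.979, 0.976 and 0.980 with compound 1, 2 and 3, and at 0.967 with HRC variant 1. All libraries share most highly expressed genes, which sets the level of these correlations.

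The genes that defined the low hearts were nearly absent from them. Myl7 (gene 17898, chromosome 11, 5896637 to 5898782, minus strand), the regulatory light chain of atrial myosin, had 475, 1137 and 539 CPM in nontransgenic hearts 1, 2 and 3, and the MYBPC3 deletion hearts gave 834, 669 and 679. It had 1349 and 431 CPM in HRC variant 1 and 2, and 0.999 in HRC variant 3. In compound hearts 1, 2 and 3 it had 6.97, 1.12 and 59.6. The lowest high heart was HRC variant 2 and the highest low heart was compound 3, a gap from 431 to 59.6 CPM.

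Myl4 (gene 17896, chromosome 11, 104550529 to 104587219, plus strand), the essential light chain of atrial myosin, had 642 to 1979 CPM in the high hearts, with a median of 889. It had 3.94 CPM in HRC variant 3 and 14.0, 4.15 and 80.0 in compound 1, 2 and 3. Sln (gene 66402, chromosome 9, 53850251 to 53853849, plus strand), which encodes the pump inhibitor sarcolipin, had 171 to 516 CPM in the high hearts (median 293). It had 0.388 CPM in HRC variant 3 and 2.21, 0.337 and 25.7 in the compound hearts. For all 3 genes compound 3 was highest and compound 1 next among the low hearts, while HRC variant 3 and compound 2 lay near each other in an order that differed between genes. The 3 genes summed to 465 TPM in compound 3 against 12.4 in HRC variant 3. Low minus high differences of mean log2 CPM were -7.18 for Myl7, -6.45 for Myl4 and -7.24 for Sln. Without HRC variant 3 they were -6.46 for Myl7 and -6.59 for Sln.

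**Figure D1:**
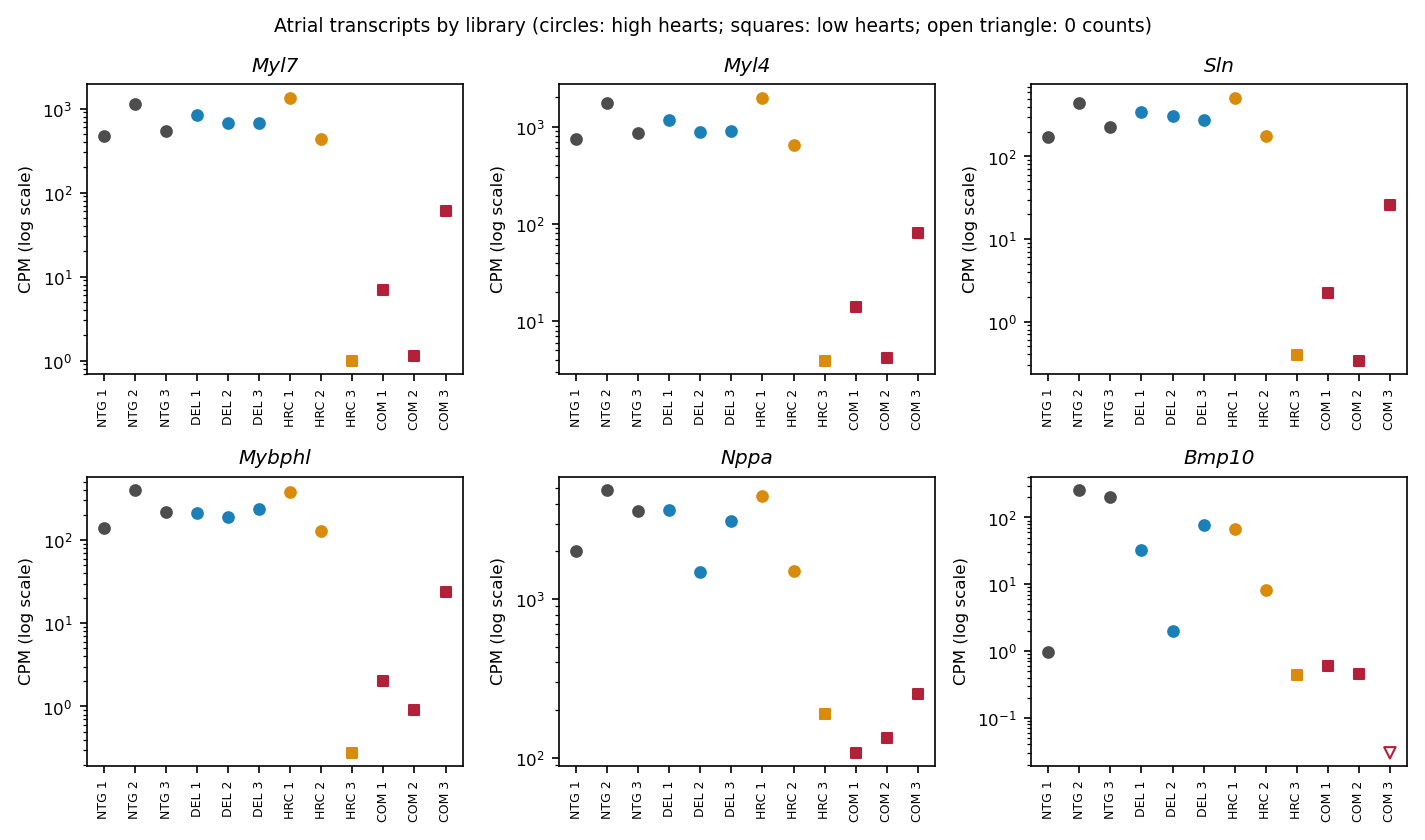
CPM on log axes of Myl7, Myl4, Sln, Mybphl, Nppa and Bmp10 in each of the 12 hearts, 1 point per heart, coloured by group (NTG nontransgenic, DEL MYBPC3 deletion, HRC variant, COM compound), with squares for low and circles for high hearts. Compound 3 lies above the other low hearts for Myl7, Myl4, Sln and Mybphl, while for Bmp10 nontransgenic 1 (0.953 CPM) and MYBPC3 deletion 2 (1.97) lie near the low hearts; the open triangle marks 0 counts.

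A further list of 24 atrial muscle genes spanned a wide range. All 24 were tested, 23 were lower in the low hearts by mean, and in 14 all 4 low hearts lay below all 8 high hearts, beside 2.38% of all 13849 genes. The median difference was -1.66 on the log2 CPM scale (range -6.70 to 0.08), beside a median of -0.00 over all genes. In 12 genes the difference was also at least 2-fold, beside 1.31% of all genes.

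Among contractile genes, Mybphl (chromosome 3, 108364911 to 108380057, plus strand), a myosin-binding protein of atrial sarcomeres, had 127 to 401 CPM in the high hearts. HRC variant 3 had 0.277 CPM, from 5 counts, and compound 1, 2 and 3 had 2.05, 0.898 and 23.6, which is the order of Myl7. Myl1, an essential light chain known from fast skeletal muscle, had 107 to 233 CPM in the high hearts. Its low hearts kept 42.2, 29.97, 33.6 and 42.2 CPM (HRC variant 3, then compound 1 to 3), so they did not overlap with the high hearts but held far more of it than of Mybphl.

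Among secreted products, Nppa (chromosome 4, 148000722 to 148002074, plus strand), the precursor of atrial natriuretic peptide, had 2026, 4889 and 3595 CPM in nontransgenic hearts. It had 3652, 1474 and 3095 CPM with the MYBPC3 deletion. In HRC variant 1, 2 and 3 it had 4465, 1501 and 190 CPM, and in the compound hearts 107.5, 133.3 and 254.2. The HRC variant group thus spanned nearly the whole range of the series in 3 hearts of one genotype. Pam, the enzyme that amidates peptides and a major membrane protein of atrial granules, had 1068 to 2723 CPM in the high hearts and 705, 590, 536 and 746 in the low hearts.

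Bmp10 (chromosome 6, 87428994 to 87434512, plus strand), a growth factor made in the adult mouse mainly by right atrial muscle, was the exception among the high hearts. It had 0.953, 259 and 204 CPM in nontransgenic hearts. Hearts with the MYBPC3 deletion had 32.4, 1.97 and 77.2 CPM, and HRC variant 1 and 2 had 67.4 and 8.16. HRC variant 3 had 0.444 CPM, compound 1 and 2 had 0.608 and 0.449, and compound 3 had 0 counts. Nontransgenic 1 and MYBPC3 deletion 2, with 16 and 31 counts, were therefore close to the low hearts for Bmp10 while their Myl7 stood at 475 and 669 CPM. Compound 3, the low heart with the most Myl7, was the one without a Bmp10 count. Dkk3, a secreted protein of the Dickkopf family, was lowest among the high hearts in nontransgenic 1 (66.1 CPM, of a range up to 454) and had 3.22, 11.9, 4.60 and 13.4 in the low hearts.

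Signalling and conduction genes had gaps of unlike size. Fgf12, an intracellular modulator of sodium channels, had 25.1 to 74.8 CPM in the high hearts and 0.166, 1.71, 0.730 and 3.91 in the low hearts. Gja5, which encodes the gap junction protein connexin 40 of atria and conduction tissue, had 24.0 to 76.6 CPM in the high hearts and 16.0, 13.9, 12.6 and 10.9 in the low ones. The kinase genes Sbk2, of the list, and Sbk3, outside it, were both separated, with Sbk3 at 134 to 368 CPM in the high hearts and 23.2, 18.2, 18.7 and 20.1 in the low. For Gja5, Sbk2 and Sbk3, unlike Myl7, compound 3 did not stand above the other low hearts.

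Other genes often counted as atrial had smaller gaps. Kcnj3 and Kcnj5 encode the channel opened by acetylcholine; Kcnj3 had 117 to 294 CPM in the high hearts and 95.9 to 135 in the low, which overlapped, and Kcnj5 differed by -0.18. The muscarinic receptor Chrm2 differed by -0.04 and the leak channel Kcnk3 by 0.08. The transcription factor Tbx5 did not overlap (58.1, 55.8, 62.0 and 67.6 CPM in the low hearts, 70.3 to 165 in the high), whereas Nr2f2, a factor of atrial identity, overlapped at 19.1 to 21.5 against 21.3 to 43.8 CPM. Nkx2-5, which is active in muscle of both chambers, differed by -0.00.

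Across all tested genes, 182 were at least 2-fold lower in the low hearts without overlap and 1 was higher by the same measure, which is 0.00722% of genes. Without a limit on size, 330 genes lay wholly below and 109 wholly above (0.787%). The single higher gene was Irx2 (chromosome 13, 72628797 to 72634196, plus strand), a homeobox factor of the ventricular conduction system and wall, which is named after its value was seen. It had 14.0 CPM in HRC variant 3 and 12.9, 16.4 and 9.23 in the compound hearts, against 3.29 to 8.68 in the high hearts. Its neighbour Irx1, also named after its value was seen, had 13.9, 13.7, 16.6 and 14.0 CPM against 2.59 to 12.2.

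The HRC variant group gives the comparison within 1 genotype and 1 sex. In HRC variant 3, 572 genes (4.13%) were at least 2-fold below both HRC variant 1 and HRC variant 2, and 37 (0.267%) were above both. Separately, the mean of the compound hearts (over log2 CPM) was at least 2-fold below that of the nontransgenic and MYBPC3 deletion hearts, without overlap, in 250 genes (1.81%) and above in 11 (0.0794%). A gene was said to follow the atrial transcripts where it met both conditions in the same direction. That held for 132 genes (0.953%), all lower, which is 52.8% of the 250 and 23.1% of the 572. Of the 250, 242 (96.8%) had the same sign in HRC variant 3, beside 49.4% of all genes. Of the 11 higher genes, 7 (63.6%) had the same sign in HRC variant 3, beside 50.6% of all genes, and 0 followed. HRC variant 3 is 1 library, so this check has no replicate of its own.

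**Figure D2:**
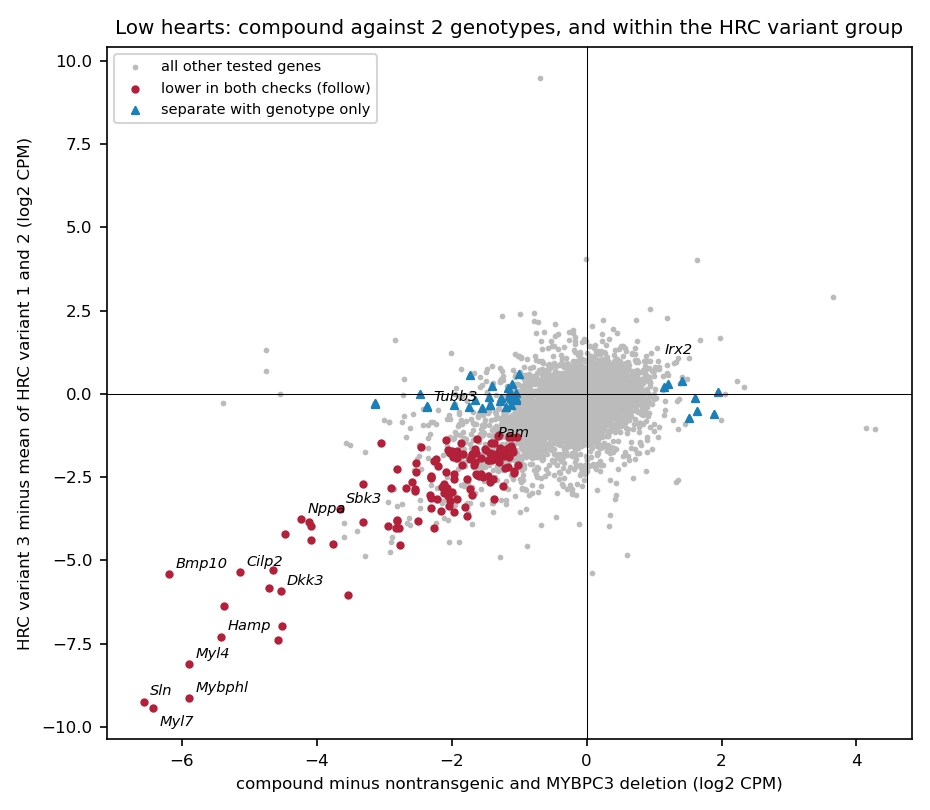
Each point is 1 of the 13849 tested genes; the x axis gives compound hearts minus nontransgenic and MYBPC3 deletion hearts, and the y axis HRC variant 3 minus the mean of HRC variant 1 and 2, both as differences of log2 CPM. The 132 following genes (red) extend to the lower left, where Myl7, Sln, Mybphl, Myl4, Bmp10 and Hamp lie furthest out. Blue triangles, labelled as separating with genotype only, are 36 genes that set compound hearts apart. They lie near 0 on the y axis or on its other side, a place set by 1 library, HRC variant 3.

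The 132 genes include the rule genes and 12 of the 24 atrial muscle genes: Nppa, Bmp10, Dkk3, Mybphl, Sbk2, Gja5, Stard10, Fgf12, Cacna2d2, Pam, Myl1 and Cacna1d. The other lists contributed 13 more, and 104 of the 132 were in none of the lists. In 22 genes the mean CPM of the low hearts was under 5% of that of the high hearts, and in 80 it was under 25%.

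Outside the lists, the following genes with the widest gaps included products known from other organs. Hamp (chromosome 7, 30942368 to 30944017, minus strand), which encodes the iron hormone hepcidin, best known from liver, had 9.59 to 107 CPM in the high hearts, with a median of 43.6. It had 0.111 CPM in HRC variant 3 and 0.663, 0.168 and 5.26 in the compound hearts, again with compound 3 highest. Rxfp1 (chromosome 3, 79641600 to 79737951, minus strand), the relaxin receptor, had 3.51 to 17.8 CPM in the high hearts and 0, 0.0553, 0 and 1.57 in the low ones. HRC variant 3 and compound 2 gave no count of it, and compound 3 gave 28. Tmem163, a zinc transporter, had 13.4 to 55.2 CPM against 0.112 to 2.52. Mlana, a melanosome protein, had 3.40 to 20.1 CPM against 0.111 to 0.503.

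Ppp1r1b, the phosphatase inhibitor DARPP-32, had 12.3 to 42.0 CPM in the high hearts and 0.277, 1.38, 1.24 and 4.47 in the low. Sfrp5, a secreted inhibitor of Wnt signalling, had 15.4 to 51.2 CPM against 4.22, 5.70, 1.24 and 3.52. The rest of the 12 named by the same rule were Sds, Lmntd1, Sbk3, Fras1, Slc7a7 and Mmp3, with low minus high differences from -4.05 for Sds to -2.35 for Mmp3. None of the 12 overlapped between low and high hearts, which the choice of following genes largely set. Of all 132, 125 were at least 2-fold lower in the low hearts without overlap, beside 1.31% of all genes.

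The order of hearts inside each class was not used to divide them, but the choice of following genes bears on it. That choice required HRC variant 3 to lie below HRC variant 1 and 2. It thus favours compound hearts as the highest low heart, and high values in HRC variant 1 and 2. The 132 also include the rule genes, so the shares below are a description. Within the low hearts, compound 3 was the highest for 47.7% of the 132 following genes, beside 25.5% of all genes. HRC variant 3 was the lowest for 50% of them, beside 28.5%, although the choice of these genes required low values in it. Within the high hearts, HRC variant 1 was the highest for 34.1% (11.7% of all genes) and nontransgenic 2 for 31.8% (9.28%), and these were also the hearts with the most Myl7. Nontransgenic 1 was the lowest for 38.6%, beside 18.2%, and HRC variant 2 for 25.8%, beside 16.9%; HRC variant 2 was the highest high heart for 0 of the 132.

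Other genes separated the compound hearts while HRC variant 3 stayed beside its group. Within 0.5 log2 units of the mean of HRC variant 1 and 2, or on the other side of it, stood 28 of the 250 lower genes (0.202% of all genes) and 8 of the 11 higher ones (0.0578%). These are called genes that separated with genotype, a label that 1 library, HRC variant 3, decides. Genotype and atrial signal still cannot be told apart in the compound hearts. Among female hearts alone, where fewer hearts can overlap, the numbers were 67 lower and 62 higher. Cenpf (chromosome 1, 189639350 to 189688105, minus strand), a centromere protein of dividing cells, had 55.8, 63.1 and 47.6 CPM in the compound hearts. It had 23.0, 16.9 and 25.96 in nontransgenic hearts, while those with the MYBPC3 deletion had 30.9, 27.7 and 27.5. HRC variant 1, 2 and 3 had 27.3, 70.9 and 50.7 CPM, so the HRC variant group was split, but not by atrial level. Among the lower genes, Lcn2, an iron-binding protein of innate immunity, had 2.32, 1.24 and 1.23 CPM in compound hearts. It had 3.08 to 5.72 in nontransgenic and MYBPC3 deletion hearts. The HRC variant group had 2.23, 1.62 and 2.27, all within the range of the compound hearts. Tubb3, a neuronal tubulin, had 0.449 to 1.22 CPM in compound hearts and 1.54 to 23.4 in the nontransgenic and MYBPC3 deletion hearts, its top value in MYBPC3 deletion 2. The other genes named by this rule, Eya2, Nmb, Fxyd2 and Mmp19, stood below 10 CPM in every heart.

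Markers of several other tissues were lower by mean in the low hearts too. The labels do not say where in the heart these tissues lay. Of 13 tested epicardium and mesothelium genes, all 13 were lower by mean, with a median of -1.13, and 5 did not overlap, beside 6980 of 13849 lower by mean and 2.38% wholly below among all genes. The keratin Krt19 had 3.75 to 12.3 CPM in the high hearts and 2.00, 1.55, 1.40 and 2.18 in the low, and Krt18, Krt8 and Upk1b followed as well. Wt1 and Tcf21, which mark epicardium and its descendants over the whole heart, differed by -0.21 and -0.30. Summed TPM of the list was 49.4 to 75.3 in the low and 66.4 to 155 in the high hearts, so the sums overlapped. How far such tissue takes part in the difference of any single gene was not tested.

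Valve and cartilage genes were lower in 11 of 11 tested, with a median of -1.53 and 3 without overlap (2.38% of all genes). Cilp2 (chromosome 8, 69880366 to 69887392, minus strand), a cartilage matrix protein, had 12.5 to 49.6 CPM in the high hearts and 0.610, 1.22, 0.337 and 0.783 in the low. It followed the atrial transcripts, as did Comp and Acan. Smooth muscle genes were lower in 9 of 10, with a median of -1.02 and 3 without overlap (2.38% of all genes). Cnn1, the smooth muscle protein calponin, had 3.69 to 61.1 CPM in the high hearts and 2.39, 1.55, 1.29 and 3.08 in the low, with the top value in MYBPC3 deletion 1.

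Fat cell genes were lower by mean in 11 of 11, with the lowest median after the rule genes at -2.22, but 0 were without overlap (2.38% of all genes). The hormone gene Adipoq had 0.715 CPM in nontransgenic 1, 56.3 in nontransgenic 2 and 2.83 to 16.5 in the other high hearts. Low hearts had 0.555, 1.27, 0.225 and 4.42 CPM, with compound 3 highest. Fibroblast genes were lower in 11 of 11 with a median of -0.51, and 5 did not overlap (2.38% of all genes), but 0 of these reached 2-fold (1.31% of all genes). The collagen gene Col1a2, for example, had 139 to 159 CPM in the low and 166 to 289 in the high hearts. Medians were -0.70 for 12 nerve and Schwann cell genes, -0.83 for 7 lymphocyte genes, -0.42 for 10 macrophage genes and -0.14 for 12 endothelial genes. The lymphocyte genes were highest in MYBPC3 deletion 2 and nontransgenic 2, where Cd79a of B cells had 42.0 and 17.7 CPM, beside 1.68 to 3.60 in the other 10 hearts.

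**Figure D3:**
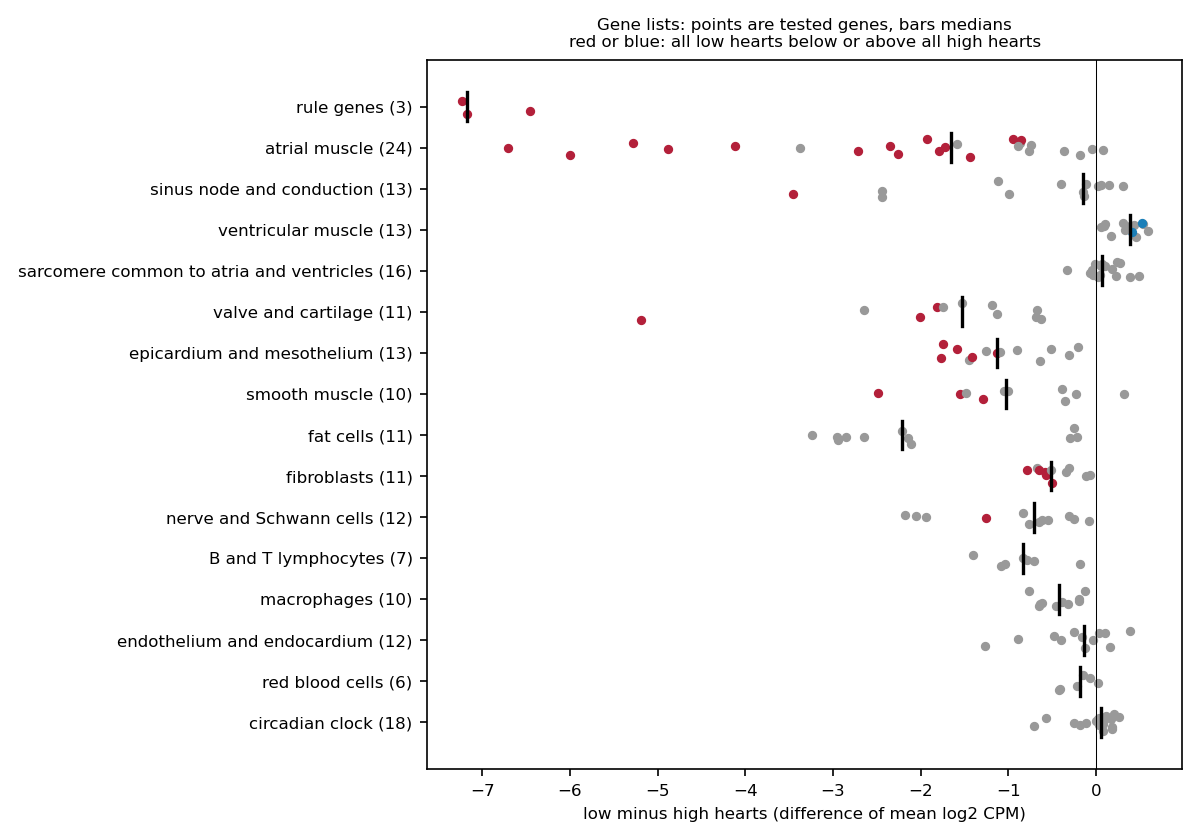
Low minus high difference of mean log2 CPM for every tested gene (points) of 16 lists, with the number of tested genes in brackets and a bar at each list's median; red points are genes with all low hearts below all high hearts and blue points the reverse. Atrial muscle genes reach from -6.70 to 0.08, the 13 ventricular muscle genes all lie above 0, and the fat cell genes hold no red point.

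Conduction genes were mixed. Of 13 tested, 9 were lower, with a median of -0.14. Cpne5, a copine enriched in conduction tissue, was the single one without overlap (2.38% of all genes), at 5.72 to 42.5 CPM in the high and 1.33, 2.43, 1.18 and 2.01 in the low hearts. Shox2, a transcription factor of the sinus node, differed by -2.44 but overlapped, with 0.953 CPM in nontransgenic 1. Hcn4, the main pacemaker channel, differed by -0.11. Its level was 3.16 CPM in nontransgenic 1, 35.9 in nontransgenic 2 and 8.16 to 15.7 in the low hearts.

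Ventricular muscle genes were higher by mean in the low hearts in 13 of 13, with a median of 0.38, and 2 did not overlap, beside 6869 of 13849 higher by mean and 0.787% wholly above among all genes. Kcnip2, a subunit of the transient outward current, had 427 CPM in HRC variant 3 and 299, 347 and 379 in the compound hearts, against 215 to 278 in the high hearts. Pln, the pump inhibitor phospholamban, had 8486, 9092, 8759 and 9283 CPM against 5326 to 8100. The ventricular light chain genes Myl2 and Myl3 differed by 0.10 and 0.06. Sarcomere genes shared by the chambers had a median of 0.07 over 16 genes with 0 separated.

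Ion channel genes lay on both sides. Of 33 channel genes, 4 lay wholly below and 3 wholly above, beside 2.38% and 0.787% of all genes. The 4 were Gja5, the calcium channel genes Cacna1d and Cacna1h, and Cacna2d2; Cacna1h, a T-type channel, had 21.1 to 124 CPM in the high and 5.38, 19.2, 13.0 and 11.3 in the low hearts. The 3 were Kcnip2, Kcnj11 and Abcc9; Abcc9, the sulphonylurea receptor of cardiac muscle, had 544, 596, 574 and 607 CPM in the low hearts against 278 to 496. Of 18 calcium handling genes, Sln alone was at least 2-fold lower without overlap (1.31% of all genes). Its values chose the low hearts, so nothing is read from that. The pump Atp2a2 differed by 0.45, the release channel Ryr2 by 0.39 and Hrc itself by 0.16, all with overlap.

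Heart failure markers are usually read as a set, and here they came apart. Of 17 markers, 9 were lower and 8 higher by mean, with a median of -0.17. Nppa (-4.12) was the single one at least 2-fold lower without overlap, beside 1.31% of all genes. Pln, given above, lay wholly above the high hearts but under 2-fold, beside 0.787% of all genes wholly above. Nppb, another natriuretic peptide gene, had 384 CPM in HRC variant 3, the highest of all 12 hearts, where Nppa was 190. In compound hearts Nppb had 87.0, 146 and 126 CPM, and in nontransgenic hearts 304, 162 and 123. Myh7, the fetal myosin heavy chain gene, had 78.1 CPM in HRC variant 3 and 156, 77.6 and 131 in compound hearts, against 42.2 to 245 in the high hearts, a difference of 0.01 that was -0.11 among female hearts. Acta1, skeletal actin, had 167, 151, 172 and 248 CPM in the low hearts and 165 to 773 in the high, a difference of -1.12 with overlap. Postn, a matrix protein of activated fibroblasts, had 39.9, 37.8, 38.0 and 41.9 CPM against 50.7 to 110. That was without overlap (2.38% of all genes wholly below) but under 2-fold. In HRC variant 3, Nppa was thus below every high heart while Nppb was above them all.

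**Figure D4:**
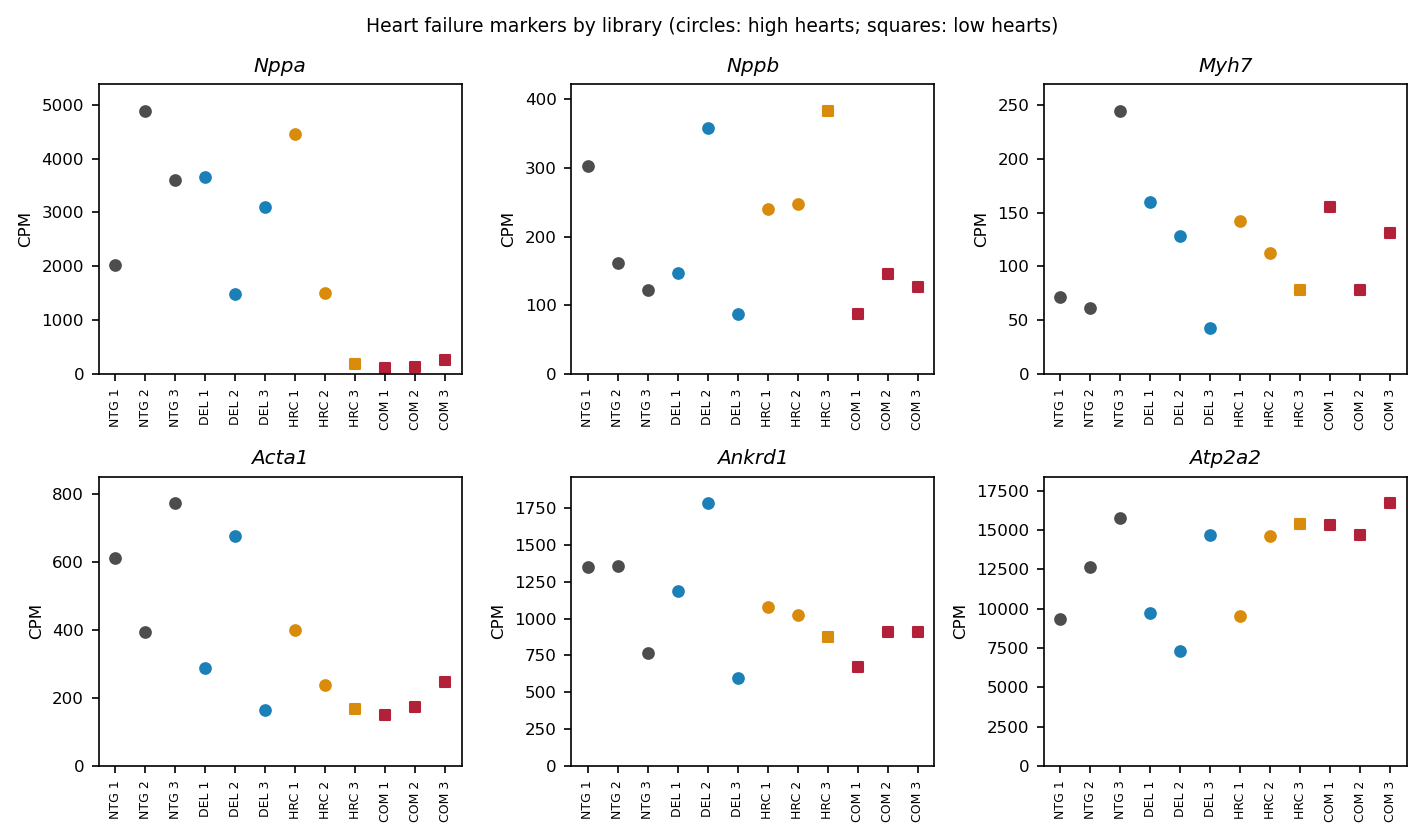
CPM on linear axes from 0 of Nppa, Nppb, Myh7, Acta1, Ankrd1 and Atp2a2 in each heart, 1 point per heart, coloured by group, with squares for low and circles for high hearts. Nppa lies between 107.5 and 254.2 CPM in the low hearts and at 1474 or more in the high hearts, while the other 5 genes overlap between the classes, and Nppb is highest in HRC variant 3 (384).

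Genotype was tested with edgeR's quasi-likelihood test over all 13849 genes, with sex as a covariate. It called 0 genes at an adjusted p under 0.05 in each of 5 comparisons. The smallest adjusted p in edgeR was 0.160 for compound against nontransgenic hearts, 0.548 for compound against MYBPC3 deletion, 0.116 for compound against HRC variant, 0.224 for HRC variant against nontransgenic and 0.184 for MYBPC3 deletion against nontransgenic. In the same order, unadjusted p in edgeR lay under 0.05 for 881 (6.36%), 794 (5.73%), 872 (6.3%), 863 (6.23%) and 1130 genes (8.16%). DESeq2 called 38 (0.274%), 6 (0.0433%), 45 (0.325%), 25 (0.181%) and 92 (0.664%). Of the DESeq2 calls, 4 of 38 and 7 of 45 were following genes, beside 0.953% of all genes, and 0 in the other comparisons. Nppa, Sbk3, Sds and Cilp2 were among them in both. Low values in compound hearts were part of the choice of following genes, so nothing is read from these overlaps. These comparisons share groups, and compound hearts hold both the genotype and the low atrial signal.

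The make-up of the HRC variant group altered what the test called. Without HRC variant 3, which left that group with 2 high hearts, edgeR called 13 genes between compound and HRC variant hearts, 12 of them lower. Without HRC variant 1 instead it called 4, all higher in compound hearts. Of the 13, 10 were following genes: Sbk2, Sbk3, Vit, Gja5, Myl1, Sds, Stard10, Olfm1, Cilp2 and Zfp579. The others were Slc17a7 and Bend6, lower, and Dgat2, higher. Gja5, for example, had an edgeR log2 difference of -2.26 (SE 0.24). In this comparison the omission set only low hearts against only high hearts, a division chosen by the rule genes. Its calls are therefore a description and not a test of genotype. The same omission gave 3 calls for compound against nontransgenic hearts, Gja5, Sds and Sbk3, which are following genes. Following genes were chosen by compound hearts lying below nontransgenic hearts and HRC variant 3 below HRC variant 1 and 2, so both overlaps are largely set by the choice and nothing is read from them.

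The MYBPC3 deletion against nontransgenic hearts compared high hearts on both sides. Nppa differed by -0.36 (SE 0.96, edgeR adjusted p = 0.965). The rule genes, which chose these hearts, had a median of 0.04, given with no test. The atrial muscle list had a median of -0.30 with 21 of 24 lower, which became 0.27 with 6 of 24 lower without nontransgenic 2, so 1 heart set its sign. For the HRC variant against nontransgenic hearts the rule genes had a median of -0.03, which was 0.56 without HRC variant 3 and -1.45 without HRC variant 1. The median of that group thus moved with which of its hearts were counted.

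Males and females were compared among the high hearts. The mean log2 CPM of the rule genes was 9.28 ± 0.54 (SD, n = 4) in males and 9.16 ± 0.69 (SD, n = 4) in females, a difference of 0.12. These values chose the hearts, so the difference is given with no test. Both sexes thus included high hearts, whereas every low heart was female, and a low male heart was not among the samples.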

How the data were processed

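The authors deposited 1 table with an expected count (an estimated read number that need not be whole) and a TPM value per gene and heart. Per the submitters' processing notes, HISAT, Bowtie2, DESeq2 and the build GRCm38.p6 were used. For each tool the role and version, like the annotation and the way reads were counted, was not given in the sources used here. Libraries held mRNA captured on oligo(dT) beads, per the labels' protocols. Coordinates come from the deposited table, promoters from RefSeq on the same build. Of 17379 genes, 25 symbols turned into dates were restored from identifiers. Xist and mitochondrially encoded genes were not analysed here.

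After rounding to whole numbers, counts entered edgeR 4.0.16 (R 4.3.3). The edgeR filter with a minimum count of 10 kept 13849 genes and removed 3530. TMM factors were 0.89 to 1.05. log2 CPM used a prior count of 2, which understates differences of low genes. The low hearts are those with very low Myl7, Myl4 and Sln; this division, the 23 gene lists and the thresholds were chosen with earlier results of these data known. A gene followed where the mean of compound hearts lay at least 1 log2 unit from that of nontransgenic and MYBPC3 deletion hearts without overlap, and HRC variant 3 lay as far from each of HRC variant 1 and 2 in the same direction.

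Named genes were the rule genes, atrial muscle genes and heart failure markers, up to 6 members of each other list by size of difference, and up to 12 lower and 8 higher following genes and 6 genes per direction separating with genotype that ranked first outside the lists, with a mean log2 CPM of at least 1 and no model names, sex-linked, haemoglobin or immunoglobulin genes. No higher gene followed, and of 8 higher genes that separated with genotype 1 met the limits for naming.

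Genotype was tested in 1 quasi-likelihood fit over 12 hearts with sex as a term (7 residual degrees of freedom, biological coefficient of variation 21.5%), with Benjamini-Hochberg adjustment. The procedure was tested on simulated counts. DESeq2 1.42.0, other filters, scalings and prior counts, female hearts alone and omission of single hearts were alternatives. Genes that share reads with close copies are uncertain, since the counting rule is unknown here.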

Additional observations from a re-analysis of the deposited data

Results flagged for a closer look

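In groups of 4 low or 8 high hearts, 10 of 50 sets of values had 1 heart set far apart from the rest, by a gap to its nearest neighbour that is large against the whole range. Chance gives such a gap in about 1 of 20 groups, and several of these measures share the same hearts. The 10 and the 50 both include Myl7, Myl4 and Sln, whose values chose the low and high hearts. The gaps of these genes are a description, so 10 of 50 is not read against that rate. The rate also assumes normally spread values. No explanation of these gaps was tested.

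Among the low hearts, compound 3 stood above the others for Myl7 (59.6 CPM, next 6.97), Myl4 (80.0 CPM, next 14.0) and Sln (25.7 CPM, next 2.21). Macrophage genes summed to 395 TPM in compound 2, next 349. Circadian clock genes summed to 565 TPM in HRC variant 3, the lowest of the low hearts, next 942.

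Among the high hearts, nontransgenic 2 was highest for fat cell genes, with 3350 summed TPM (next 1790), and for endothelial and endocardial genes, with 2510 (next 2040). MYBPC3 deletion 1 was highest for smooth muscle genes at 1460 TPM (next 792). MYBPC3 deletion 2 held 1020 TPM of lung genes, next 14.0. Nontransgenic 1 was highest for skeletal muscle genes at 4580 TPM, next 3520.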

How the results depend on the processing

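The direction of the low minus high difference held for all 146 named genes with DESeq2 size factors and with a prior count of 0.5. It turned for 7 genes among female hearts alone and for 4 without HRC variant 3, all with small differences except Hbb-bt (1.19 among female hearts). The number of genes at least 2-fold apart between low and high hearts without overlap (183) was 350 among female hearts, 328 without nontransgenic 1 and MYBPC3 deletion 2 together, 299 without HRC variant 3 and compound 3 together, and 181 to 282 with single hearts left out, the last without nontransgenic 1. Fewer hearts make overlap less frequent by construction. Following genes (132) numbered 223 among female hearts, 229 without nontransgenic 1 and MYBPC3 deletion 2, and 132 to 219 with single hearts left out, the last without HRC variant 2. Genes that separated with genotype only (36) numbered 58 when low genes were kept, 10 with a minimum count of 50, 129 among female hearts (67 lower, 62 higher), 64 without nontransgenic 1 and MYBPC3 deletion 2, and 25 to 78 with single hearts left out: 58 without nontransgenic 3, 60 without MYBPC3 deletion 3, 73 without HRC variant 1, and 78, 72 and 65 without compound 1, 2 and 3. The pairs of hearts were chosen after seeing the data.

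edgeR's 0 calls became, with DESeq2, 38 for compound against nontransgenic, 6 against MYBPC3 deletion, 45 against HRC variant, 25 for HRC variant against nontransgenic and 92 for MYBPC3 deletion against nontransgenic. With single hearts left out, edgeR called 0 to 3 for compound against nontransgenic (3 without HRC variant 3, 1 without nontransgenic 1), 0 to 13 against HRC variant (13 without HRC variant 3, 12 of them lower, and 4 without HRC variant 1, 0 of them lower), 0 to 8 for HRC variant against nontransgenic (8 without HRC variant 1, 1 without compound 3) and 0 in the other 2 comparisons. The 13 calls without HRC variant 3 set only low hearts against only high hearts, so they are a description. The male minus female difference of atrial level (0.12) was -0.22 on the atrial muscle list, and -0.088 to 0.43 with single hearts left out.

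The atrial level as a covariate left edgeR at 0 calls, as without it. With a replicate block, edgeR again called 0 genes in all 5 comparisons. Same-numbered samples share only a number: correlations of their deviations from group means ranged from -0.20 to 0.06, -0.24 to 0.14 and -0.11 to 0.32 for numbers 1, 2 and 3. Depth limits the low hearts most, where Myl7 rested on 18 counts in HRC variant 3 and 20 in compound 2.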

Other observations

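Clock genes divided the HRC variant group along another line than the atrial transcripts. Arntl, the core activator of the circadian clock, had 9.15, 22.5 and 15.8 CPM in HRC variant 1, 2 and 3 and 1.68 to 8.02 in the other 9 hearts. Ciart, a clock repressor, had 25.6, 5.02 and 4.05 CPM in HRC variant 1, 2 and 3 and 20.65 to 35.8 elsewhere. Of 18 tested clock genes, 0 separated low from high hearts, beside 2.38% wholly below and 0.787% wholly above among all genes.

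Casq1, the calsequestrin of fast skeletal muscle, had 73.3 CPM in HRC variant 3 and 15.4, 9.60 and 8.11 in the compound hearts, so the low hearts held both the highest and the lowest level of the series. Atp2a1, the calcium pump of the same muscle, did not overlap, with 0.888, 0.940, 1.63 and 1.79 CPM in the low hearts and 1.90 to 9.89 in the high ones. Gata5, a transcription factor of endocardium and epicardium, differed by -2.52 but overlapped, with 0.298 CPM in nontransgenic 1 and 8.53 in nontransgenic 2.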
